A study of Rattus norvegicus with 18 samples.

Results

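Fatty acid synthesis and its NADPH supply were followed through 7 genes, Me1, Acly, Acaca, Fasn, Scd, Scd2 and Fabp5, in 2 rat thyroid cell lines. Members were all probe sets that the platform annotation maps to exactly 1 of these symbols, which gave 20 of the 8740 probe sets tested and 7 of 4736 named genes. They were 5 probe sets of Me1, 3 of Acly, 1 of Acaca, 2 of Fasn, 2 of Scd, 6 of Scd2 and 1 of Fabp5. A further probe set, AF036761_g_at, was annotated to Scd, Scd2 and other Scd genes together and was not counted for any of them. No filter on low signal was applied, so all 20 entered every test. Thyroid-stimulating hormone (TSH) is the pituitary hormone that drives thyrocyte function. The FRT/TSHR cells are a de-differentiated line named for its TSH receptor, grown in Coon's modified F12 medium and given bovine TSH at 1 U/L. FRTL5 is a differentiated thyrocyte line, kept without TSH in 5H medium for 5 days and then given bovine TSH at 0.1 U/L. Serum was withdrawn 12 h before stimulation in both. Each was sampled without hormone (basal), after 30 min and after 17 h of TSH, with 3 biological replicates per group and so 18 one-colour Affymetrix arrays. Line, medium and TSH dose differed together and cannot be told apart, and no group without TSH was sampled at 30 min or 17 h, so time and TSH cannot be told apart either.

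Cells make fatty acids in the cytosol from citrate that leaves the mitochondria. ATP citrate lyase (Acly) splits it into acetyl-CoA, acetyl-CoA carboxylase alpha (Acaca) turns this into malonyl-CoA in the step that limits the rate, and fatty acid synthase (Fasn) joins the units into palmitate. Each round of Fasn spends NADPH, which the cytosolic malic enzyme (Me1) and the pentose phosphate pathway supply. Stearoyl-CoA desaturases (Scd and Scd2) put a double bond into the product, and the fatty acid binding protein Fabp5 carries fatty acids in the cytosol. In liver and fat the genes of these enzymes are well known targets of the transcription factor SREBP-1 (gene Srebf1), and Me1 is a classic thyroid hormone target in liver.

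The RefSeq promoter table (build GRCr8) held Me1, Acly, Scd and Scd2 of the 7 genes. Their sequences from 250 bases before to 50 after the gene's start are shown because Me1 and Acly passed the test after 17 h of TSH in FRTL5 while Scd2 differed between the lines and Scd in neither way. Each runs 5′ to 3′ along the gene. Capitals mark matches on either strand to CCAAT or to GGGCGG (the GC box). Me1 lay at chr8:96540195-96540494 on the minus strand, Acly at chr10:85963582-85963881 on the minus strand, Scd at chr1:253231682-253231981 on the minus strand and Scd2 at chr1:253118127-253118426 on the plus strand.
Me1: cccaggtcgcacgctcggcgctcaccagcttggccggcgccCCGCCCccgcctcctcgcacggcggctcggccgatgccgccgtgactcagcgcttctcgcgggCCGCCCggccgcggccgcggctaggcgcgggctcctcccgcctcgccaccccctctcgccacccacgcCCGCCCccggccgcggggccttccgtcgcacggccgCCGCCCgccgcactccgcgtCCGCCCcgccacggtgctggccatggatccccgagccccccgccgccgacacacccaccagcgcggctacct
Acly: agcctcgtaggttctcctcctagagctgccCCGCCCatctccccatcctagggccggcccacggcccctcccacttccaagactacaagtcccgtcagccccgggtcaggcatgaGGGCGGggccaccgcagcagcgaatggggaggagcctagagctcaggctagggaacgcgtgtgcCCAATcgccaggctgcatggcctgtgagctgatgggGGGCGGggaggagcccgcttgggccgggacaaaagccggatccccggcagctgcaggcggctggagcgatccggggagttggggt
Scd: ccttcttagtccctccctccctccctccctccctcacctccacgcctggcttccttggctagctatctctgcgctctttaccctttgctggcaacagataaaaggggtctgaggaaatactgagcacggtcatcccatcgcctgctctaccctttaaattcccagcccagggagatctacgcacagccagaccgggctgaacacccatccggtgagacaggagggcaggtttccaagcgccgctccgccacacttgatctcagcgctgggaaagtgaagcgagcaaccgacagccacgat
Scd2: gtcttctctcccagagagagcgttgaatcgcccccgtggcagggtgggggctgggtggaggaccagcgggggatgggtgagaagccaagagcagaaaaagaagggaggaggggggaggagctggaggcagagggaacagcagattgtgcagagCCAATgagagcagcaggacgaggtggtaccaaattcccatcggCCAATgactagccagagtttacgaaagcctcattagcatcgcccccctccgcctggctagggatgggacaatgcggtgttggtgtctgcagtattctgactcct
The Me1 promoter held 5 GC boxes, at positions -209, -146, -78, -42 and -22 from the annotated gene start. The Me1 bases after that start open with ATG, so it may be the start codon. The positions may therefore not be distances from a transcription start, which was not tested. Acly held 3 GC boxes and 1 CCAAT, Scd2 held 2 CCAAT, and Scd matched neither motif. Among all 33469 promoters of the same length CCAAT was found in 37.5% and GGGCGG in 33.1%. The core of the sterol regulatory element searched as TCACNCCAC (1.12% of promoters), the E-box CACGTG (6.42%) and the cAMP response element TGACGTCA (1.83%) had no match in these 4 windows. A match describes the letters and not a bound site, and the absence of one says only that these letters do not occur in the window.

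Values are the deposited log2 signals, which ran from 2.61 to 13.58, with array medians of 5.47 to 5.58. Signal is comparable between arrays for 1 probe set and not between probe sets. In FRTL5 the arrays numbered 1 stood apart in the signal along the beta-actin transcript, with a 3′ minus 5′ difference of 1.13 to 1.22 (log2) on those 3 arrays and of -0.14 to 0.28 on the other 15. Within a line, arrays of the same number deviated together from their group means, but in FRTL5 arrays of different numbers could do so too (correlation up to 0.628). Results that rest on the FRTL5 arrays numbered 1 are given with and without them. The lines were checked against thyrocyte markers, of which 6 of 7 were measured. Their summed linear signal was 684.7 to 796.2 on FRT/TSHR arrays and 2136 to 5188 on FRTL5 arrays. At basal Tg, which encodes thyroglobulin, was lower in FRT/TSHR by 7.04 ± 0.37 on the log2 scale (log2 difference -7.04). In basal FRTL5 Tg weighed most in the summed signal, with a mean of 11.21 (log2), the next being Pax8 with 9.79. Slc5a5, Pax8 and Foxe1 were lower in FRT/TSHR too (-1.20, -1.21 and -1.89), while Tshr and Nkx2-1 did not pass the test. Slc5a5, the iodide symporter gene and a known TSH target, was higher in FRTL5 at 17 h than at basal by 2.62 ± 0.18 (adjusted p = 1.86e-06). The other 5 did not pass there, Pax8 having -0.80 ± 0.23 (adjusted p = 0.0724) and Tg -0.64 ± 0.37 (adjusted p = 0.555), and the median summed signal was 4189 at 17 h and 4957 at basal.

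**Figure D1:**
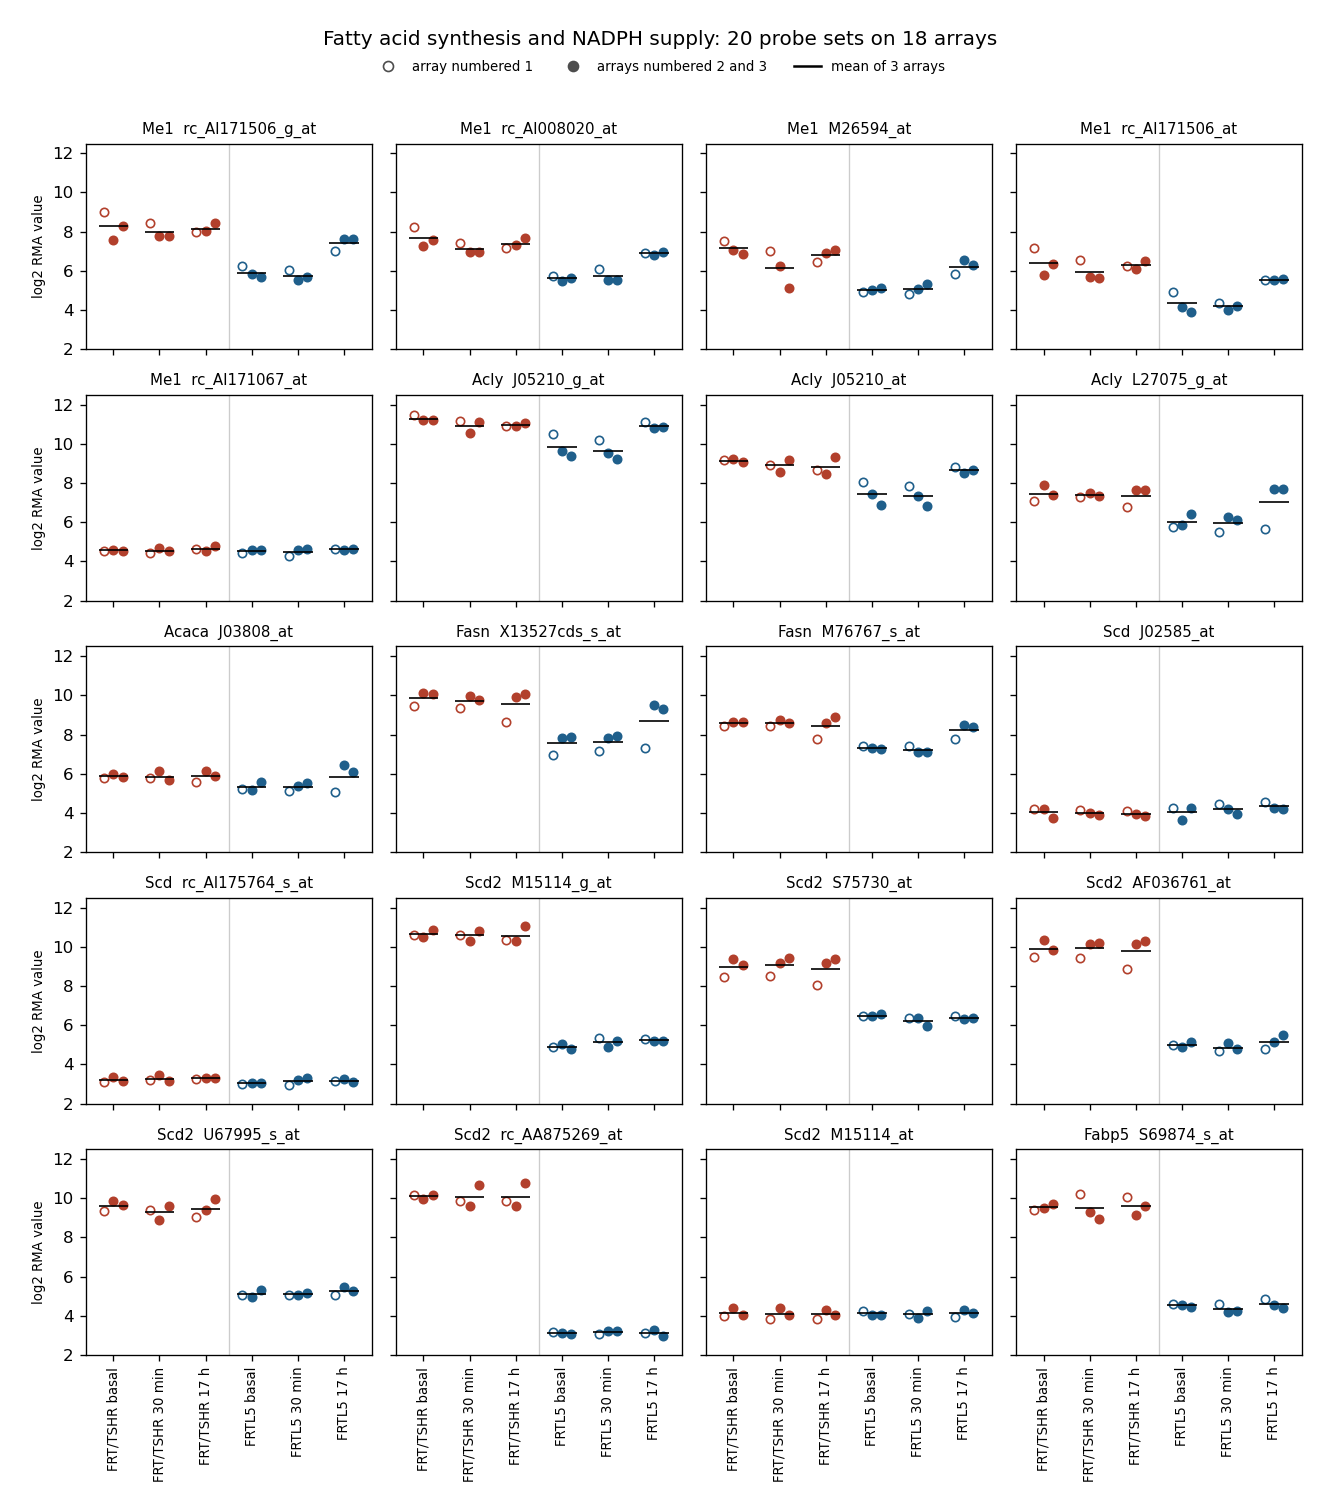
Log2 signal (vertical axis) of each of the 20 probe sets on all 18 arrays, by group (horizontal axis), FRT/TSHR in red and FRTL5 in blue. Open circles are arrays numbered 1, filled circles those numbered 2 and 3, and bars the means of 3 arrays. In FRTL5 the means of 4 Me1 probe sets, all 3 of Acly and both of Fasn are higher at 17 h than at basal, and 5 Scd2 probe sets and Fabp5 lie on separate levels in the lines.

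The main question was which of these genes differed in FRTL5 between basal and 17 h of TSH. Time and TSH cannot be told apart in this comparison. Some probe sets of the malic enzyme gene Me1, the citrate lyase gene Acly and the synthase gene Fasn rose, by 0.89 to 1.50 (log2). The carboxylase gene Acaca, the desaturase genes Scd and Scd2 and Fabp5 did not pass. In limma with Benjamini-Hochberg adjustment over all probe sets 6 of the 20 were called up and 0 down. They were 3 of 5 Me1, 2 of 3 Acly and 1 of 2 Fasn probe sets. The calls of Acly, of Fasn and of 1 Me1 probe set depended on which arrays were fitted, as given below. Among all 8740 probe sets 1.64% were called up and 1.92% down. Of the 20, 18 had a higher value at 17 h, and their median log2 difference was 0.43, against 0.01 for all probe sets tested. The 20 probe sets belong to only 7 genes, which were chosen with earlier results of these data known. This contrast with all probe sets and the later ones are therefore descriptions only. In RNA from whole cultures more RNA per cell and more cells that make it cannot be told apart.

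Me1 encodes the malic enzyme that makes NADPH in the cytosol. Its brightest probe set, rc_AI171506_g_at, read 7.04, 7.60 and 7.60 on the FRTL5 17 h arrays and 6.22, 5.82 and 5.69 on the FRTL5 basal arrays. All arrays at 17 h lay above all at basal, and replicate 1 was lowest at 17 h and highest at basal. Me1 rose 2.84-fold on this probe set (log2 difference 1.50 ± 0.29 SE, adjusted p = 0.00919). On rc_AI008020_at the 17 h arrays read 6.92, 6.79 and 6.93 and the basal arrays 5.75, 5.48 and 5.65, again without overlap. The rise was 2.39-fold (1.26 ± 0.22, adjusted p = 0.00452), and within replicate numbers the differences were 1.18, 1.31 and 1.29. These 2 Me1 probe sets kept their calls in all 6 fits that left out 1 array (adjusted p up to 0.0467 and 0.0245). On rc_AI171506_at Me1 read 5.53, 5.51 and 5.60 at 17 h and 4.93, 4.16 and 3.91 at basal, a rise of 1.22 ± 0.32 (adjusted p = 0.0437, and 0.0813 when only those 6 arrays were fitted). On M26594_at it read 5.81, 6.55 and 6.28 at 17 h and 4.92, 5.03 and 5.11 at basal. This difference of 1.19 ± 0.35 did not pass (adjusted p = 0.0811) but passed with the replicate number as a block (adjusted p = 0.0224). The 5th probe set, rc_AI171067_at, lay between 4.26 and 4.77 on all 18 arrays and had a difference of 0.08 ± 0.11, so the probe sets of Me1 disagreed.

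Acly, which makes the acetyl-CoA for synthesis, rose on both J05210 probe sets. On J05210_g_at the FRTL5 17 h arrays read 11.09, 10.82 and 10.86 and the basal arrays 10.48, 9.66 and 9.39. The 17 h arrays all lay above the basal ones and were closer together. The rise was 2.12-fold (1.08 ± 0.26, adjusted p = 0.0296). On J05210_at the values were 8.80, 8.53 and 8.65 at 17 h and 8.07, 7.43 and 6.87 at basal (1.20 ± 0.30, adjusted p = 0.0333). Both Acly calls stood only when FRTL5 basal replicate 1 was dropped (adjusted p up to 0.13 and 0.142 in the other 5 fits), and neither stood when only those 6 arrays were fitted (adjusted p = 0.144 and 0.122). The other probe set of Acly, L27075_g_at, read 5.66, 7.70 and 7.69 at 17 h and 5.74, 5.84 and 6.44 at basal. Replicate 1 at 17 h lay below all basal arrays, while replicates 2 and 3 lay above them. The difference of 1.01 ± 0.43 did not pass (adjusted p = 0.315). It passed with the replicate block (adjusted p = 0.03), and without FRTL5 17 h replicate 1 it was 1.69 (adjusted p = 0.00607).

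Acaca, which makes malonyl-CoA, read 5.04, 6.46 and 6.06 at 17 h and 5.23, 5.15 and 5.59 at basal in FRTL5. The groups overlapped through replicate 1 at 17 h, and the difference of 0.53 ± 0.27 did not pass (adjusted p = 0.453). Without FRTL5 17 h replicate 1 it was 0.94 (adjusted p = 0.0196).

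For Fasn, the synthase itself, probe set M76767_s_at read 7.76, 8.49 and 8.39 at 17 h and 7.40, 7.30 and 7.27 at basal. The groups did not overlap, and Fasn rose 1.86-fold (0.89 ± 0.23, adjusted p = 0.0403). With only those 6 arrays fitted the Fasn call was lost (adjusted p = 0.106). The other Fasn probe set, X13527cds_s_at, read 7.29, 9.49 and 9.29 at 17 h and 6.95, 7.81 and 7.88 at basal. Replicate 1 at 17 h lay below 2 of the basal arrays, although above the basal array of its own number. The difference of 1.15 ± 0.49 did not pass (adjusted p = 0.322), but it passed with the replicate block (adjusted p = 0.00804), and it was 1.84 without FRTL5 17 h replicate 1 (adjusted p = 0.0201).

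**Figure D2:**
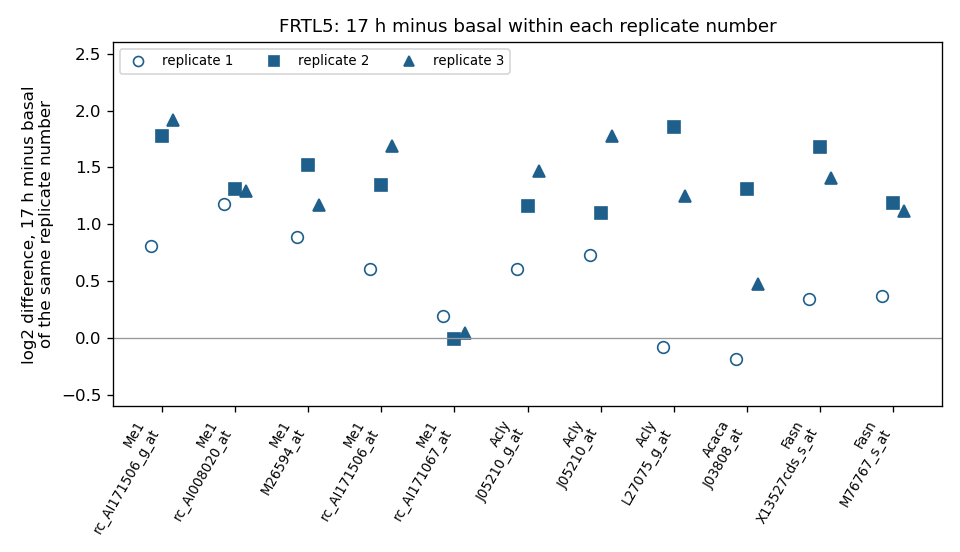
Log2 difference between 17 h and basal (vertical axis) within each replicate number of FRTL5, for the probe sets of Me1, Acly, Acaca and Fasn (horizontal axis). Replicate 1 (open circles) has the lowest difference for 10 of these 11 probe sets, and it is below 0 for Acly L27075_g_at (-0.08) and Acaca (-0.19).

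The desaturase and carrier genes gave no call in FRTL5 at 17 h. Scd, the main desaturase of liver and fat, had differences of 0.28 ± 0.18 and 0.13 ± 0.11 (adjusted p = 0.626 and 0.734). Scd2, the desaturase of brain and many other tissues, had differences of -0.11 to 0.32 over its 6 probe sets (adjusted p of 0.559 or more). S75730_at, the brightest of Scd2 in FRTL5, read 6.45, 6.33 and 6.36 at 17 h and 6.44, 6.45 and 6.58 at basal, which overlap (-0.11 ± 0.30). M15114_g_at, the brightest over all 18 arrays, read 5.29, 5.19 and 5.19 at 17 h and 4.90, 5.03 and 4.78 at basal, without overlap (0.32 ± 0.18, adjusted p = 0.559). Fabp5 read 4.87, 4.54 and 4.42 at 17 h and 4.58, 4.56 and 4.47 at basal, which overlap (0.07 ± 0.26).

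Of the 6 calls, those of Me1 rc_AI171506_at, both J05210 probe sets of Acly and Fasn M76767_s_at were each kept in only 1 of the 6 fits that dropped an array. The adjusted p reached 0.172 for Me1, 0.142 for Acly J05210_at, 0.13 for Acly J05210_g_at and 0.18 for Fasn, and no sign changed. For Me1 rc_AI171506_at, as for Acly, the fit that kept the call was that without FRTL5 basal replicate 1, and for Fasn that without FRTL5 17 h replicate 1. The count of called members was 2 when replicate 2 or 3 of either FRTL5 group was dropped, 5 when basal replicate 1 and 6 when 17 h replicate 1 was dropped. With the replicate block it was 9, Me1 M26594_at, Acly L27075_g_at and Fasn X13527cds_s_at being added. The block raised the calls over all 8740 probe sets as well, from 311 to 867. Without the FRTL5 arrays numbered 1 the count of called members was also 9, here with Acly L27075_g_at, Acaca and Fasn X13527cds_s_at added (adjusted p = 0.0114, 0.0412 and 0.0433). It was 10 without the arrays numbered 1 of both lines, an alternative added after the data were seen. For the fits without arrays numbered 1, calls over all probe sets at 17 h are not given here, so no share stands beside these counts.

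After 30 min of TSH no member was called in FRTL5 (limma, 0 of 20, and 0 with an unadjusted p under 0.05), where 0.240% of all probe sets were called. Differences ran from -0.25 to 0.24, with a median of -0.05. Me1 rc_AI171506_g_at read 6.03, 5.55 and 5.67 at 30 min and Acly J05210_g_at read 10.22, 9.51 and 9.25, both inside or close to the spread of their basal arrays.

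Between 30 min and 17 h in FRTL5 the same 6 probe sets of Me1, Acly and Fasn were called up and 0 down (1.86% of all probe sets up, 2.35% down). Me1 rose by 1.66 ± 0.29 on rc_AI171506_g_at (adjusted p = 0.0042), by 1.17 ± 0.22 on rc_AI008020_at and by 1.36 ± 0.32 on rc_AI171506_at. Acly rose by 1.26 ± 0.26 and 1.31 ± 0.30 (adjusted p = 0.0121 and 0.0191), and Fasn by 1.00 ± 0.23 on M76767_s_at (adjusted p = 0.0202). This comparison shares its 17 h arrays with the one against basal, so its calls are not independent of those above. With the replicate block 9 were called, the 3 added being Me1 M26594_at, Acly L27075_g_at and Fasn X13527cds_s_at, and 10 without the arrays numbered 1 of both lines. Over all probe sets the block raised the calls from 368 to 916. The count of called members was 2 without FRTL5 30 min replicate 2 or 3, 3 without 17 h replicate 3, 4 without 17 h replicate 2 and 7 without 17 h replicate 1. Me1 on rc_AI171506_g_at and on rc_AI008020_at kept their calls in all 6 fits.

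In FRT/TSHR no member was called at either time. At 30 min and at 17 h 0% of all probe sets were called in limma, with 208 and 108 at an unadjusted p under 0.05. At 30 min 16 of the 20 members had lower values than at basal, with a median of -0.06, and 2 Me1 probe sets had an unadjusted p under 0.05. For one of them, M26594_at, the arrays read 7.03, 6.25 and 5.11 at 30 min and 7.54, 7.04 and 6.84 at basal (-1.01 ± 0.35, adjusted p = 1). The spread of Me1 on this probe set at 30 min (SD 0.96) was nearly as large as the difference. On the other, rc_AI008020_at, Me1 read 7.43, 6.97 and 6.97 at 30 min (SD 0.27) and 8.25, 7.27 and 7.56 at basal (SD 0.50), which overlap. All 5 Me1 probe sets had lower values at 30 min than at basal, with a median of -0.47.

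At 17 h in FRT/TSHR 17 of the 20 were lower than at basal, with a median of -0.12 and differences from -0.33 to 0.09. Me1 rc_AI008020_at read 7.17, 7.34 and 7.67 at 17 h and 8.25, 7.27 and 7.56 at basal (-0.30 ± 0.22, adjusted p = 1). The replicates went different ways, with differences of -1.07, 0.07 and 0.12 within numbers 1, 2 and 3. Acly J05210_g_at read 10.91, 10.92 and 11.07 at 17 h and 11.46, 11.21 and 11.21 at basal, without overlap (-0.33 ± 0.26). Fasn X13527cds_s_at read 8.64, 9.93 and 10.10 at 17 h and 9.47, 10.11 and 10.08 at basal, with replicate 1 lowest in both groups (-0.33 ± 0.49).

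The difference of the 17 h change between the lines was tested directly, as the FRT/TSHR change minus the FRTL5 change. Of the members 1 was called lower and 0 higher, where 0.481% of all probe sets were called lower and 0.309% higher. It was Me1 on rc_AI008020_at, whose change was smaller in FRT/TSHR by a log2 difference of -1.56 ± 0.31 (adjusted p = 0.0287, and 0.0615 in a fit of only the 4 groups compared). The other 3 Me1 probe sets that were higher in FRTL5 at 17 h had -1.35 to -1.63, Acly -1.12 to -1.53 and Fasn -1.04 and -1.48, none of which passed. Acaca had -0.54, and Scd, Scd2 and Fabp5 had -0.41 to 0.01. Over the 20 the median was -0.47, against 0.00 for all probe sets, and 8 had an unadjusted p under 0.05.

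With the replicate number as a block within each line, 7 members passed in place of 1, and 365 of all probe sets in place of 69. The 7 members were Me1 on 3 probe sets, Acly on both J05210 probe sets (adjusted p = 0.00385 and 0.00776) and Fasn on both (adjusted p = 0.0473 on M76767_s_at and 0.0281 on X13527cds_s_at), all with a smaller change in FRT/TSHR. Without the block, 8 of the 12 fits that each dropped an array did not call Me1. These were the fits without FRT/TSHR basal replicate 3, without FRT/TSHR 17 h replicate 1 or 2, without FRTL5 basal replicate 2 or 3 and without any one of the 3 FRTL5 17 h replicates. Its value stayed between -1.28 and -1.77, and the adjusted p reached 0.0887 without FRT/TSHR 17 h replicate 1. The count was 3 without FRTL5 basal replicate 1, where both J05210 probe sets of Acly passed, and 2 without FRT/TSHR basal replicate 2, where Me1 rc_AI171506_g_at passed. It was 6 without the arrays numbered 1 of both lines. At 30 min the difference between the lines had 0 of 20 members called, 1 with an unadjusted p under 0.05 (Me1 M26594_at, -1.06 ± 0.49), and 0.0343% of all probe sets called.

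**Figure D3:**
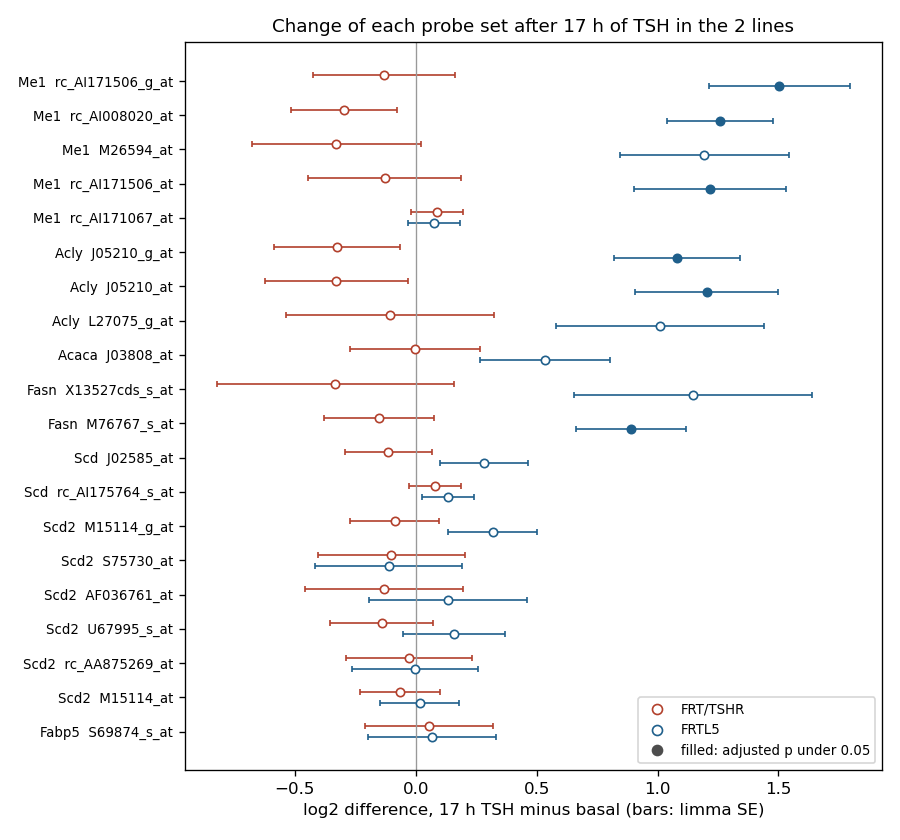
Log2 difference between 17 h of TSH and basal (horizontal axis) for each probe set (vertical axis), in FRT/TSHR (red, upper) and FRTL5 (blue, lower). Bars are limma standard errors and filled points have an adjusted p under 0.05. The 6 filled points are FRTL5 values of Me1, Acly and Fasn from 0.89 to 1.50, and no FRT/TSHR point lies above 0.09.

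At basal the lines differed in most of these genes. FRTL5 had then been kept without TSH for 5 days, and no time without TSH is recorded for FRT/TSHR. In FRT/TSHR the log2 signal was higher by 2.48 to 6.99 on 5 of 6 Scd2 probe sets and by 5.02 for Fabp5, and by 1.26 to 2.37 on the probe sets of Me1, Acly and Fasn called. These are differences of signal: for 4 of these Scd2 probe sets (not S75730_at) and for Fabp5 the basal FRTL5 means were 3.12 to 5.11, below the array medians, and since detection above background was not measured, no fold of RNA is given for them. The basal FRTL5 means of Me1 rc_AI171506_at (4.33), Me1 M26594_at (5.02) and Acaca (5.32) also lay below the medians. The same limit holds for their differences, those at 17 h included. Of the 20 members 15 were called higher and 0 lower, where 13.3% of all probe sets were higher and 12.2% lower. The median difference was 2.07, against -0.04 over all probe sets. The line comparison at basal shares the FRTL5 basal arrays with the TSH comparisons in FRTL5, so its values are given beside them and not related to them.

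Me1 read 8.98, 7.58 and 8.27 on rc_AI171506_g_at in basal FRT/TSHR and 6.22, 5.82 and 5.69 in basal FRTL5. The lines did not overlap, although the FRT/TSHR replicates spread over more than 1 log2 unit. The difference was 2.37 ± 0.29 (adjusted p = 1.16e-05). The other Me1 probe sets had 2.07, 2.12 and 2.08, and again 0.01 on rc_AI171067_at. Acly was higher by 1.45 ± 0.26, 1.69 ± 0.30 and 1.46 ± 0.43 (adjusted p = 0.000452, 0.000352 and 0.0186). The call of Acly L27075_g_at was lost without FRT/TSHR basal replicate 2 (adjusted p = 0.0842), FRTL5 basal replicate 1 (0.0633) or FRTL5 basal replicate 2 (0.0594), and the other 14 calls stood in all 6 such fits.

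Fasn read 9.47, 10.11 and 10.08 on X13527cds_s_at in basal FRT/TSHR and 6.95, 7.81 and 7.88 in basal FRTL5 (2.34 ± 0.49, adjusted p = 0.00174). On M76767_s_at Fasn was higher by 1.26 ± 0.23 (adjusted p = 0.000474). Acaca read 5.78, 5.98 and 5.84 in FRT/TSHR and 5.23, 5.15 and 5.59 in FRTL5. Its lines did not overlap either, but the difference of 0.55 ± 0.27 did not pass (adjusted p = 0.173). In a fit of only the 6 basal arrays Acaca passed (adjusted p = 0.029).

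The desaturases parted. Scd2 read 10.60, 10.51 and 10.86 on M15114_g_at in basal FRT/TSHR and 4.90, 5.03 and 4.78 in basal FRTL5 (5.75 ± 0.18, adjusted p = 1.72e-12). On rc_AA875269_at Scd2 read 10.18, 9.97 and 10.16 in FRT/TSHR and 3.16, 3.12 and 3.08 in FRTL5 (6.99 ± 0.26). The FRTL5 signal of Scd2 there was near the lowest deposited value of any probe set, 2.61. Probe sets AF036761_at, U67995_s_at and S75730_at gave 4.89, 4.51 and 2.48, so that the size of the Scd2 difference depended on the probe set. The 6th Scd2 probe set, M15114_at, stayed between 3.83 and 4.41 on all 18 arrays (0.01 ± 0.17). Scd stayed between 3.64 and 4.55 on J02585_at and between 2.94 and 3.43 on rc_AI175764_s_at over all 18 arrays, with line differences of 0.00 ± 0.18 and 0.17 ± 0.11. Whether Scd was above background was not measured. The probe set annotated to several Scd genes was between 8.52 and 10.04 in FRT/TSHR and between 5.90 and 6.78 in FRTL5.

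Fabp5 read 9.42, 9.53 and 9.73 in basal FRT/TSHR and 4.58, 4.56 and 4.47 in basal FRTL5. The lines lay far apart relative to their spread, with a difference of 5.02 ± 0.26 (adjusted p = 5.32e-10). Over all times Fabp5 lay between 8.97 and 10.25 in FRT/TSHR and between 4.17 and 4.87 in FRTL5.

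**Figure D4:**
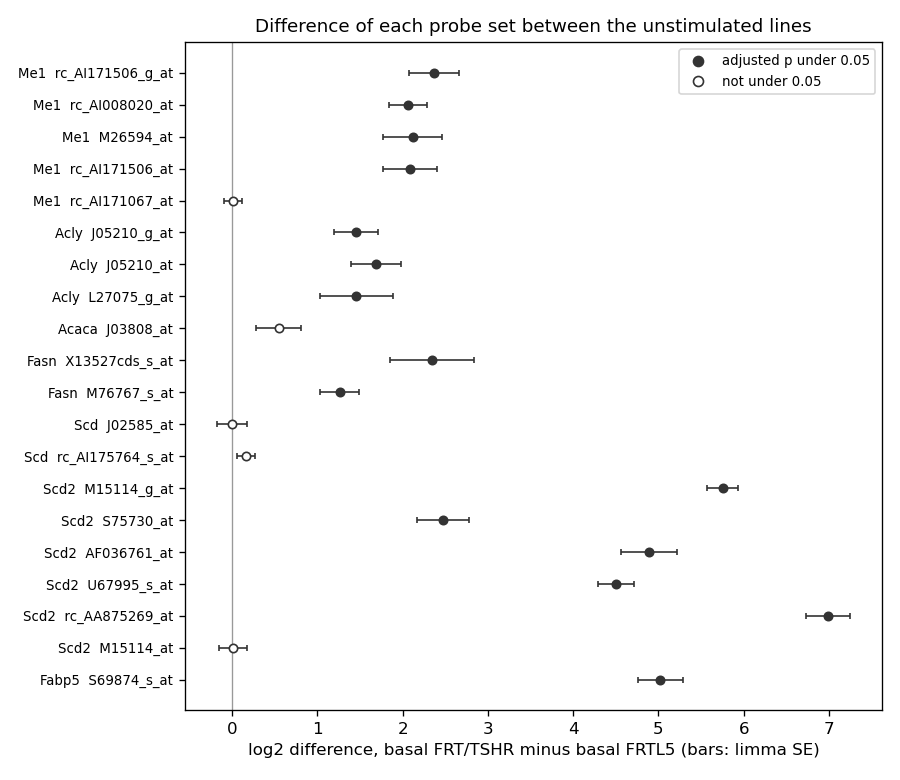
Log2 difference between basal FRT/TSHR and basal FRTL5 (horizontal axis) for each probe set (vertical axis), with limma standard errors as bars and filled points for an adjusted p under 0.05. Values reach 6.99 for Scd2, and the 5 open points are Acaca (0.55), both Scd probe sets and 1 probe set each of Me1 and Scd2 near 0.

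Over the 6 groups the genes fell into different orders of level. For Scd2 on its 5 probe sets called between the lines and for Fabp5, every FRT/TSHR array lay above every FRTL5 array. The same held narrowly for Me1 on rc_AI008020_at (lowest FRT/TSHR array 6.97, highest FRTL5 array 6.93). It also held for Me1 on rc_AI171506_at (5.62 and 5.60). For Me1 rc_AI171506_g_at the means were 8.28, 7.99 and 8.15 at basal, 30 min and 17 h in FRT/TSHR, which overlapped, and 5.91, 5.75 and 7.41 in FRTL5. The FRTL5 17 h arrays of Me1 (7.04 to 7.60) lay below the FRT/TSHR 30 min and 17 h arrays (7.76 or higher) and met only FRT/TSHR basal replicate 2 (7.58). Acly J05210_g_at averaged 11.29, 10.93 and 10.97 in FRT/TSHR and 9.84, 9.66 and 10.92 in FRTL5. At 17 h the Acly arrays of the lines overlapped (10.91 to 11.07 in FRT/TSHR, 10.82 to 11.09 in FRTL5). Fasn M76767_s_at averaged 8.58, 8.59 and 8.43 in FRT/TSHR and 7.32, 7.22 and 8.22 in FRTL5, with overlap at 17 h as well. Acaca averaged between 5.86 and 5.87 in all FRT/TSHR groups and at 5.32, 5.35 and 5.86 in FRTL5. The lines were not tested against each other at 17 h.

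The probe sets of a gene did not all move together over the arrays. After the mean of its line was taken from each array, 4 Me1 probe sets correlated at r = 0.75 to 0.953 over 18 arrays, and the 5th at 0.271 or less with them. The J05210 probe sets of Acly correlated at 0.952 with each other and at 0.247 and 0.299 with Acly L27075_g_at, which followed Fasn X13527cds_s_at at 0.945. Acaca followed Fasn X13527cds_s_at at 0.891. On the FRTL5 basal arrays replicate 1 was the highest for both J05210 probe sets of Acly and the lowest for Acly L27075_g_at and Fasn X13527cds_s_at. The part of the beta-actin 3′ to 5′ difference on those arrays in this pattern was not tested.

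Among all named genes, the 3 whose brightest probe set was most like that of each member were listed by the same measure, as a description over 18 arrays that share line, hormone time and replicate number. Me1 was most like Fdft1 (0.884), the squalene synthase gene, Acot7 (0.880), an acyl-CoA thioesterase, and Qdpr (0.874). Acly was most like Hsd17b12 (0.931), a ketoreductase of fatty acid elongation, Acsl3 (0.921), which activates fatty acids to acyl-CoA, and Pomp (0.918). Acaca was most like Fasn (0.891), Pip4k2b (0.878) and Srebf1 (0.873). Fasn was most like Mfsd10 (0.923), Rpn1 (0.902) and Pola2 (0.893). The values were lower for Scd2 (Ap1s1 0.793, Nsdhl 0.775 and Bid 0.759), for Scd (Cd53 0.821, Mos 0.778 and Cx3cr1 0.775) and for Fabp5 (Inhbe 0.867, Psmb8 0.784 and Odc1 0.766).

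The other genes of the pathway were read from 6 lists, of which 77 of 130 genes were measured by 125 probe sets. In FRTL5 at 17 h 6 of these were called up and 2 down, where 1.64% of all probe sets were called up and 1.92% down, with a median difference of 0.05. Of the 10 probe sets on NADPH supply 3 were called up and 1 down, with a median of 0.03. Tkt, the transketolase of the pentose phosphate pathway, averaged 8.80 ± 0.03 at 17 h and 7.72 ± 0.24 at basal on U09256_at (SD, n = 3 each), a rise of 1.08 ± 0.14 (adjusted p = 0.000495). On its other probe set Tkt rose by 1.09 ± 0.27 (adjusted p = 0.0339), a call that stood only when FRTL5 17 h replicate 1 was dropped (adjusted p up to 0.165 in the other 5 fits). Mthfd1, a folate enzyme that can make NADPH, averaged 8.12 ± 0.30 at 17 h and 7.07 ± 0.06 at basal and rose by 1.05 ± 0.16 (adjusted p = 0.00181). Nnt, the mitochondrial transhydrogenase, fell by 0.75 on the log2 scale (-0.75 ± 0.13, adjusted p = 0.00347). Idh1, the cytosolic NADPH-making isocitrate dehydrogenase, did not pass on either probe set (0.02 ± 0.19 and -0.11 ± 0.15). Tkt on U09256_at, Mthfd1 and Nnt kept their calls in all 6 fits without 1 array.

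On citrate and acetyl-CoA supply 1 of 20 probe sets was called, rc_AI010480_at of Mdh2, the mitochondrial malate dehydrogenase (0.60 ± 0.15, adjusted p = 0.0333). The other Mdh2 probe set, rc_AI010480_g_at, did not pass (0.43 ± 0.32, adjusted p = 0.693). The Mdh2 call on rc_AI010480_at was kept only without FRTL5 basal replicate 3, with adjusted p up to 0.125 in the other 5 fits. The citrate carrier gene Slc25a1 had a difference of 0.53 ± 0.24 (adjusted p = 0.357). On elongation and desaturation 1 of 8 was called, Acot7 on D88890_at (0.92 ± 0.17, adjusted p = 0.00759), which kept its call in all 6 fits, while its other probe sets had 1.07 ± 0.33 and -0.13 ± 0.14. None was called of the 28 on activation, binding and uptake or the 22 on glycerolipid synthesis and storage (limma, with 2 and 0 at an unadjusted p under 0.05). Among 37 probe sets of regulators, Insig1, which holds SREBP in the endoplasmic reticulum, rose by 0.81 ± 0.18 (adjusted p = 0.0212), and Prkab1, a subunit of AMP kinase, fell by 0.58 on the log2 scale (-0.58 ± 0.14, adjusted p = 0.0253). Insig1 lost its call when replicate 2 or 3 of either FRTL5 group was dropped (adjusted p up to 0.109), and its other probe set had 0.47 ± 0.42. Prkab1 kept its call only without FRTL5 basal replicate 3 (adjusted p up to 0.104 in the others). Srebf1 itself averaged 8.42 ± 0.65 at 17 h and 7.99 ± 0.09 at basal (0.43 ± 0.24, adjusted p = 0.541), 0.79 without FRTL5 17 h replicate 1 (adjusted p = 0.0365) and 0.83 without the arrays numbered 1 of both lines (adjusted p = 0.0362). Without the FRTL5 arrays numbered 1 the calls of Tkt on rc_AI059508_s_at, Mdh2, Acot7 and Prkab1 were lost (adjusted p = 0.0613, 0.306, 0.0613 and 0.0524). Calls were also gained in that fit, among them 1 upward on activation, binding and uptake. With the replicate block the calls were 5 on citrate and acetyl-CoA supply, 4 on elongation and desaturation, 2 on activation, binding and uptake, all upward, and 5 among regulators, of which 1 was upward. The calls over all probe sets rose with the block too, from 311 to 867.

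Between 30 min and 17 h in FRTL5 7 of the 125 were called up and 3 down, where 1.86% of all probe sets were called up and 2.35% down. Next to Tkt, Mthfd1, Mdh2 on rc_AI010480_at and Acot7, both probe sets of Hsd17b12 were called upward (0.52 and 0.91, adjusted p = 0.0398 and 0.0122). The other Mdh2 probe set did not pass (1.09 ± 0.32, adjusted p = 0.0704). Those called downward were Nnt, Prkab1 and Prkag1 (-0.54, -0.59 and -0.41). Of the 10 called, Tkt on U09256_at, Mthfd1, Mdh2 and Acot7 kept their calls in all 6 fits without 1 array. Hsd17b12 on U81186_at kept its call only without FRTL5 30 min replicate 1, and Prkag1 only without 17 h replicate 2. Hsd17b12 on U81186_g_at lost its call without 30 min replicate 2 or 3, and the other Tkt probe set without 30 min replicate 3 or 17 h replicate 3. Prkab1 lost its call without 30 min replicate 1 or 17 h replicate 1 or 3, and Nnt without 30 min replicate 1 or 2 or 17 h replicate 2 or 3. At 30 min in FRTL5 0 of the 125 were called (limma, with 1 at an unadjusted p under 0.05). In FRT/TSHR 0 of the 125 were called at 30 min or at 17 h (limma, with 3 and 0 at an unadjusted p under 0.05), and Tkt, Mthfd1, Insig1 and Srebf1 had differences of -0.17, -0.24, -0.00 and -0.05 at 17 h (Tkt on U09256_at and Insig1 on L13619_at).

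**Figure D5:**
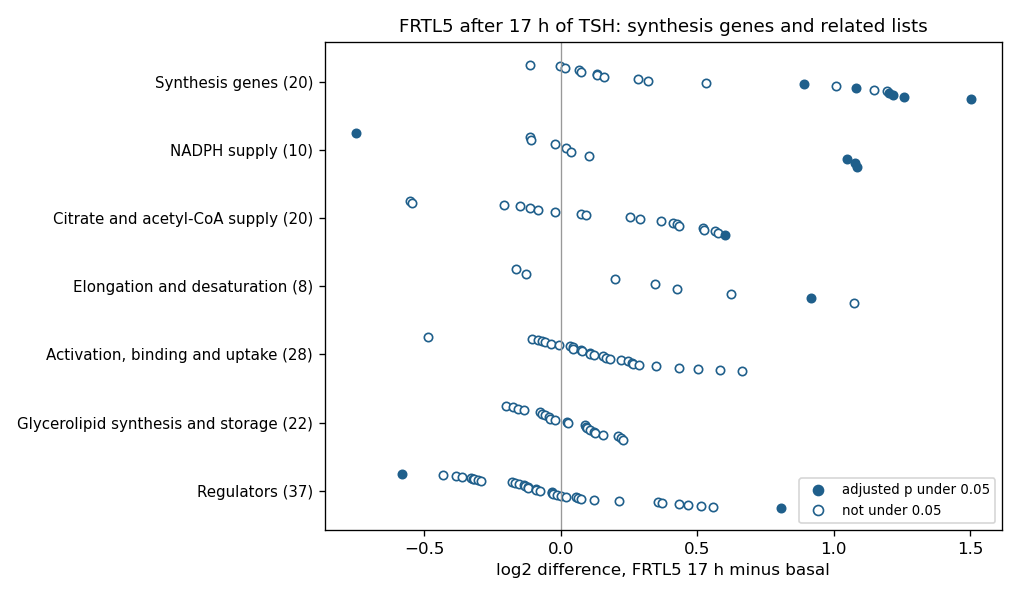
Log2 difference between 17 h and basal in FRTL5 (horizontal axis) of each probe set of the 7 synthesis genes (top) and of the 6 related lists (below, number of probe sets in brackets). Filled points have an adjusted p under 0.05: 6 of 20 in the top line and 8 of 125 in the lists, 2 of the 8 being falls.

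Between the basal lines 28 of the 125 were called higher in FRT/TSHR and 17 lower, where 13.3% of all probe sets were higher and 12.2% lower, with a median of 0.01. Tkt was higher by 2.94 ± 0.27 and 2.44 ± 0.14 (adjusted p = 4.05e-07 and 1.37e-09), Idh1 by 1.77 ± 0.19 on 1 of 2 probe sets, Insig1 by 1.98 ± 0.18 and 1.51 ± 0.42, Mdh2 by 1.08 ± 0.15 and 0.96 ± 0.32 and Slc25a1 by 0.91 ± 0.24. Of these Insig1 on L13619_g_at lost its call without FRT/TSHR basal replicate 3 or FRTL5 basal replicate 2, and Mdh2 on rc_AI010480_g_at in every fit but that without FRT/TSHR basal replicate 2. Nnt was lower, with -1.10 ± 0.13 (adjusted p = 5.1e-06), and Srebf1 had -0.08 ± 0.24.

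Because adipocytes are rich in these enzymes, their markers were read as well, 8 of 10 genes being measured. Their summed linear signal was 840.3 to 999.5 on FRT/TSHR arrays and 785.7 to 1157 on FRTL5 arrays. Lep alone made up 59.8 to 65.2% of the sum on FRT/TSHR arrays and 57.6 to 69.2% on FRTL5 arrays, and the other 7 summed to 308.3 to 398.2 and 279.6 to 356.1, so the ranges overlapped with and without Lep. None was called in FRTL5 at 17 h. At basal Pparg, a transcription factor of fat cells, was higher in FRT/TSHR (1.68 ± 0.26, adjusted p = 0.000135) and Cfd was lower (-0.61 ± 0.12), while the fat cell genes Fabp4 and Plin1 averaged 3.74 and 4.35 in FRT/TSHR and 3.60 and 4.51 in FRTL5. RMA gives no zero, so no marker could be read as absent. Of the other cell types, the 7 fibroblast genes summed to 287.5 to 315.8 in FRT/TSHR and 302.2 to 344.5 in FRTL5, 4 C cell genes to 80.7 to 94.7 and 93.2 to 121.3, 3 endothelial genes to 111.8 to 146.0 and 119.2 to 144.4, and 3 leukocyte genes to 135.8 to 238.0 and 144.7 to 171.9. Calls among these lists were Pdgfra (-0.62) and Ret (-0.67) at basal, both lower in FRT/TSHR, and Ret (-0.36) in FRTL5 at 17 h.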

How the data were processed

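Per the labels' protocols, total RNA (10 µg) was made into biotin-labelled cRNA. The authors deposited log2 expression values per probe set, made with RMA per the submitters' processing notes; its version and settings are not given in the sources used here, and the values themselves, 2.61 to 13.58, gave the scale. Detection above background was not measured. Scanner files were not analysed here. Of 8799 probe sets, 59 controls were left out. The platform annotation gave 7006 of the 8740 others 1 symbol, 308 several and 1426 none. The member genes, the 6 pathway lists and the marker lists (thyrocyte, adipocyte, fibroblast, C cell, endothelial and leukocyte) were chosen with earlier results of these data known. Genes outside the members were named if a probe set was called in FRTL5 17 h minus basal, FRTL5 17 h minus 30 min or the difference of the 17 h change (at most 4 per list, by smallest p), or if they stood on a short list of 13 lipogenic genes, of which Srebf1, Insig1, Idh1 and Slc25a1 were measured. Likeness was Pearson's r over 18 arrays after the mean of each line was subtracted, with the brightest probe set per gene.

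One model of 6 group means over 18 arrays was fitted with lmFit and eBayes (limma 3.58.1, R 4.3.3; degrees of freedom 12 residual, 3.597 prior). The two-sided tests had Benjamini-Hochberg adjustment over 8740 probe sets in each of 8 comparisons, and a call needs an adjusted p under 0.05. The fit was tested on simulated data. Errors are limma standard errors (SE) unless given as SD. Precision is limited by the number of arrays. The labels call the replicates biological and do not say whether cultures were separate, so p-values measure the spread between these samples.

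Labels number replicates 1 to 3 in each group. Within a line, deviations from the group means correlated for every pair of arrays of 1 number (r = 0.158 to 0.619 in FRT/TSHR and 0.148 to 0.798 in FRTL5, 9 pairs each). For arrays of different numbers r was -0.41 to -0.0296 in FRT/TSHR and -0.639 to 0.628 in FRTL5. The ranges overlap in FRTL5, so pairing is less clear there. The numbers were taken to pair arrays within a line. The reported tests nevertheless leave the number out, and those with it as a block stand beside them as an alternative where a call or count changed. Between lines r was -0.217 to 0.42 for arrays of the same number and -0.367 to 0.501 for others, and numbers were not paired across lines. Alternatives were the replicate block, fewer arrays in the fit, another spread estimate, quantile normalization, median centring, a filter on dim probe sets, leaving out FRTL5 arrays numbered 1, and leaving out each array. Sequences are from RefSeq tables (GRCr8).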

Additional observations from a re-analysis of the deposited data

Results flagged for a closer look

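A test of the difference itself between FRT/TSHR and FRTL5 in the change from basal to 17 h passed for 3 probe sets of the genes followed here, all lower in FRT/TSHR. For Me1 on rc_AI008020_at the difference was -1.56 (adjusted p = 0.0287), from changes of -0.30 in FRT/TSHR and 1.26 in FRTL5. For Mthfd1 it was -1.29 (adjusted p = 0.013), from -0.24 in FRT/TSHR and 1.05 in FRTL5. For Tkt on U09256_at it was -1.24 (adjusted p = 0.00746), from -0.17 in FRT/TSHR and 1.08 in FRTL5. Mthfd1 and Tkt kept their calls in all 12 fits without 1 array (adjusted p up to 0.0403 and 0.0288), and Me1 in 4. In a fit of only the 4 groups compared Me1 and Mthfd1 lost their calls (adjusted p = 0.0615 and 0.059), and Mthfd1 also did without the arrays numbered 1 of both lines (-0.90, adjusted p = 0.107). Line, medium and TSH dose cannot be told apart in these differences. No test for single samples far from their group was run, each group holding 3 arrays.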

How the results depend on the processing

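Of 2380 recomputed member differences, 380 were of called differences, of which 0 changed sign and 54 lost the call; of the 2000 others, 44 gained a call and 206 changed sign, none of them past the threshold. Counts of called members were 6 in FRTL5 for 17 h against basal, 6 for 17 h against 30 min and 1 for the difference of the 17 h change between lines. A fit of only the arrays compared gave 3 (2 of them shared) for 17 h against basal and 0 for the difference between lines. The replicate block within a line, which is nested in line and so could not be used between the basal lines, gave 9, 9 and 7. Leaving out the FRTL5 arrays numbered 1 gave 3 for the difference between lines, and leaving out those of both lines, added after the data were seen, gave 10, 10 and 6. Leaving out each array in turn gave 2 to 6, 2 to 7 and 0 to 3 called members, and 14 to 15 between the basal lines. The counts at 30 min in FRTL5, at both times in FRT/TSHR and for the 30 min difference stayed at 0. Over all probe sets, the calls for FRTL5 30 min, FRTL5 17 h, 17 h against 30 min, the 30 min difference and the 17 h difference were 21, 311, 368, 3 and 69. They were 40, 867, 916, 8 and 365 with the block and 2, 96, 189, 1 and 22 with only the arrays compared. Without FRTL5 arrays numbered 1 the first was 45 and the 30 min difference 25; without those of both lines they were 52 and 25, and FRT/TSHR at 30 min had 2. Without 1 array the 5 counts ranged over 12 to 44, 152 to 253, 145 to 270, 1 to 24 and 33 to 83. Quantile normalization and median centring moved the median of all probe sets by at most 0.041 (log2). Under centring Me1 rc_AI171506_at had an adjusted p of 0.0539 at 17 h in FRTL5. The causes of these moves were not tested. Signal over background was not measured, so no level of Scd or of Me1 rc_AI171067_at could be set against a detection limit.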

Other observations

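Several genes that handle fatty acids next to the synthesis enzymes differed between the basal lines and are not described above. They were named after their values were seen. Acsl5 and Acsl1, which activate long-chain fatty acids to acyl-CoA, were higher in FRT/TSHR, Acsl5 by 1.71 ± 0.20 and 1.90 ± 0.28 and Acsl1 by 0.52 to 1.30 on 3 of 4 probe sets (limma, adjusted p up to 0.00946), the other having 0.03 ± 0.11. Dbi, which binds acyl-CoA, was higher by 1.92 ± 0.23 (adjusted p = 6.94e-06), and Taldo1, the transaldolase of the pentose phosphate pathway, by 1.41 ± 0.17 (adjusted p = 6.53e-06). Lower in FRT/TSHR were Slc27a1, a fatty acid transporter (-2.13 ± 0.24, adjusted p = 3.4e-06), Pdk2, a kinase that inhibits pyruvate dehydrogenase (-2.46 ± 0.29 and -2.54 ± 0.19), Aco1 (-1.43 ± 0.18) and, on 1 of 2 probe sets, Hacd3, a dehydratase of elongation (-1.32 ± 0.13, the other having 0.24 ± 0.17). Among glycerolipid genes Cds1, which makes CDP-diacylglycerol, was higher by 0.53 to 1.81 on 3 probe sets, and Gpd1, the glycerol phosphate dehydrogenase, was lower (-0.95 ± 0.20, adjusted p = 0.00179).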
